A study of Mus musculus with 29 samples.

Results

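Lung of wild-type mice was compared 8 h after dexamethasone, a synthetic glucocorticoid, with lung of wild-type mice 8 h after saline. The change of each gene rests on 6 of the 29 arrays of the series, taken by their titles. These were 3 with dexamethasone (replicates 54, 55 and 56) and 3 with saline (replicates 37, 38 and 39). The comparison is described across the 15357 genes that could be tested. The mice were of the C57BL/6 strain and 6 to 8 weeks old, the dose was 2.5 mg/kg, and total RNA of lung was measured with 1-colour Agilent arrays. Means of other groups enter only where the time or the genotype is compared. These groups were 4 arrays of wild-type lung 4 h after saline and 4 at 4 h after dexamethasone. From mice that lack the transcription factor Klf15 (Klf15-/-) they were 4 arrays of lung 8 h after saline and 4 at 8 h after dexamethasone. The spread of each gene was estimated over all 29 arrays. Among them are also 3 arrays of Klf15-/- lung 4 h after saline and 4 at 4 h after dexamethasone. The labels name the samples biologic replicates without saying how many mice each array holds. The p-values therefore measure only the spread between arrays of a group, pooled over the 8 groups.

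Glucocorticoids bind the glucocorticoid receptor, a nuclear receptor encoded by Nr3c1 that moves to the nucleus with its ligand and activates genes such as Fkbp5, Per1 and Tsc22d3 directly from DNA. The receptor also holds back genes driven by NF-kB, AP-1 and interferon signalling, which underlies the use of these drugs against inflammation of the airways. In the body they shift fuel use from glucose to fatty acids and amino acids and lower the number of lymphocytes in blood. Klf15 is itself a target of the receptor and a regulator of amino acid breakdown.

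Every value below is the log2 of a probe's processed signal minus the 75th percentile of its array, so that 1 unit is a 2-fold difference, and values are given in the order of the replicate numbers. A change is the mean of the 3 dexamethasone arrays minus the mean of the 3 saline arrays, with its standard error (SE) from limma, and a gene was called where the Benjamini-Hochberg adjusted p of limma's moderated test over all genes was under 0.05. The 75th percentile of the signal was 2213, 2123 and 2331 intensity units on the dexamethasone arrays and 3331, 2413 and 2474 on the saline arrays, and 77.3 to 88.5% of spots were well above background. Arrays of 1 group correlated with r = 0.983 to 0.992 over genes, and arrays of different groups with r = 0.973 to 0.987. Dexamethasone array 56 correlated with saline array 39 at 0.987, and with dexamethasone arrays 54 and 55 at 0.987 and 0.983. On the first principal component of the 6 arrays, which held 45% of the variance, dexamethasone arrays 54 and 55 scored 43.1 and 58, whereas dexamethasone array 56 scored -20.1, beside the saline arrays at -19.5, -32.9 and -28.5. Array 56 and saline array 39 shared a slide, and no other slide held both groups. Counts over all genes and for the lymphocyte, dendritic cell, neutrophil and chemokine receptor lists are therefore given with and without array 56. Pneumocyte genes marked every array as lung, with the surfactant genes Sftpb (saline 4.80, 5.04 and 4.70, dexamethasone 4.87, 4.72 and 4.48) and Sftpc (saline 7.15, 7.55 and 7.51, dexamethasone 7.82, 7.77 and 7.61) high on all 6.

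More genes were lower than higher after dexamethasone. Of the 15357 genes, 3680 (24%) were called, 1453 of them higher (9.46%) and 2227 lower (14.5%). At least 2-fold differences were found for 133 higher and 514 lower genes, and at least 4-fold differences for 15 higher and 87 lower genes. The median change was 0.45 among the genes called higher and -0.59 among those called lower, against a median SE of 0.139. All 3 dexamethasone arrays lay above all 3 saline arrays for 2436 genes (15.9%) and below them for 3381 (22%), and 3565 of the 3680 called genes showed such separation. Without dexamethasone array 56 the counts were 3327 genes called, with 718 rather than 514 at least 2-fold lower.

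**Figure D1:**
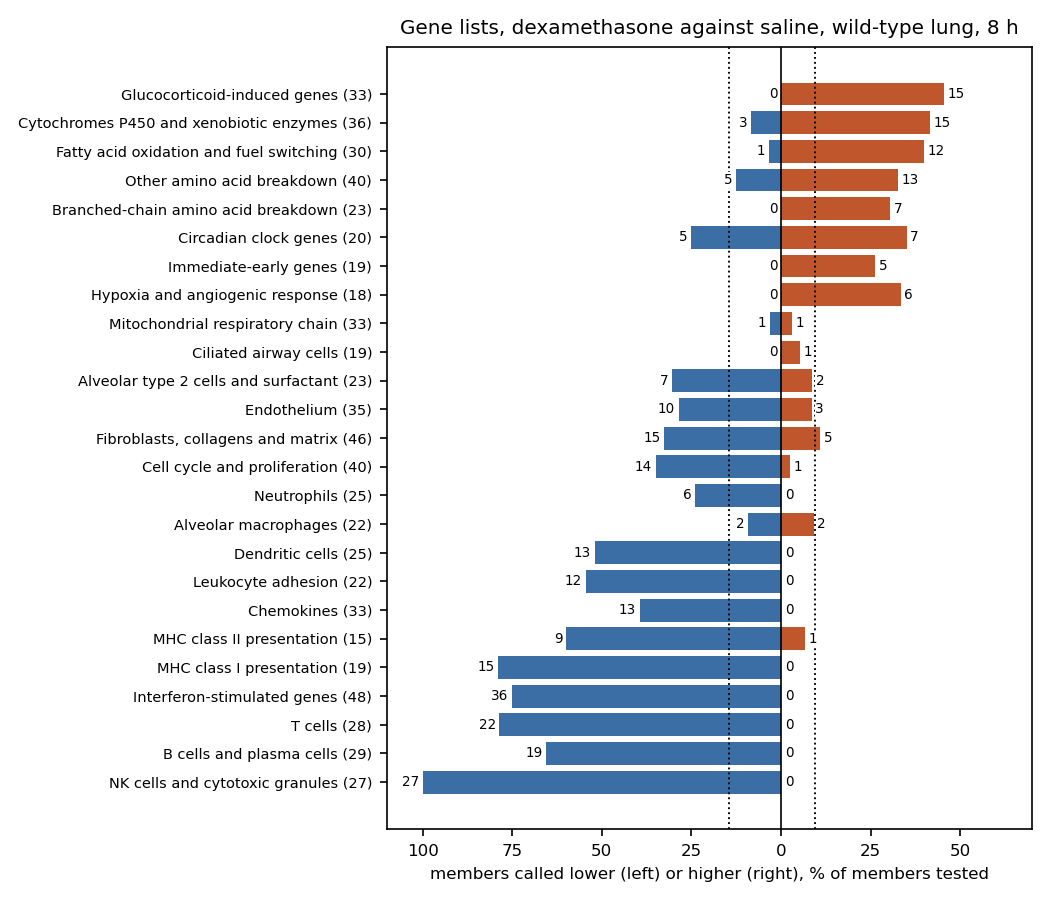
Percent of the tested members of 25 gene lists that were called lower (blue, left) or higher (orange, right) after dexamethasone at 8 h, with the number of members tested in brackets and the number called at the end of each bar. Dotted lines mark the share of all genes called lower (14.5%) and higher (9.46%). All 27 NK cell genes were called lower, and 15 of 33 glucocorticoid-induced genes were called higher.

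Genes known to be induced by glucocorticoids were higher as a group. Of 33 tested members, 15 were called higher and none lower, with a median change of 0.47 against -0.06 over all genes, and with array medians (relative to the mean of the saline arrays) of 0.71, 0.33 and 0.51 under dexamethasone. Pdk4, a kinase that switches off pyruvate dehydrogenase and spares glucose, read -0.51, -0.14 and -0.54 in saline and 2.60, 1.25 and 1.50 in dexamethasone lung, a 4.53-fold rise (change 2.18, SE 0.235, adjusted p = 5.62e-07). Fam107a, an actin-binding stress gene, rose from 0.20, 0.36 and 0.47 to 2.53, 2.03 and 2.15 (change 1.89, SE 0.162, adjusted p = 1.67e-08). The cell cycle inhibitor Cdkn1a rose from 0.36, 0.78 and 0.59 to 2.45, 2.06 and 2.38 (change 1.73, SE 0.198, adjusted p = 1.21e-06). In these 3 genes every dexamethasone array lay at least 1 unit above every saline array. The metallothioneins Mt2 (1.60) and Mt1 (0.75), which bind zinc and copper and may share probe signal, the lipase inhibitor Angptl4 (1.19), the kinase Map3k6 (1.08), the transcriptional repressor Bcl6 (0.81), the haemoglobin scavenger receptor Cd163 (1.23) and the kinase Sgk1 (0.71), which holds sodium channels at the cell surface, also rose. The count of higher genes was 13 to 16 when each array was left out in turn.

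Among the textbook targets, Fkbp5, the cochaperone that lowers the receptor's affinity for its ligand, depended on the probe. By its brightest probe it read -0.13, 0.17 and 0.48 in saline and 0.71, -0.34 and 0.09 in dexamethasone lung, with overlap between the groups, and was not called (change -0.02, SE 0.514, adjusted p = 0.983). Its other kept probes rose by 1.92 (SE 0.196) and 1.74 (SE 0.241), both called, so no level at 8 h can be read from the brightest probe alone. The clock gene Per1 (-0.08, adjusted p = 0.829), the phosphatase Dusp1 (0.14, adjusted p = 0.769) and the mRNA decay factor Zfp36 (0.07, adjusted p = 0.827) were not called. Tsc22d3, which encodes the anti-inflammatory protein GILZ, was called at 0.47 (adjusted p = 0.047), and was not called without saline array 37 (adjusted p = 0.124), saline array 38 (adjusted p = 0.12), saline array 39 (adjusted p = 0.0536), dexamethasone array 54 (adjusted p = 0.196) or dexamethasone array 56 (adjusted p = 0.0765). Nr3c1 itself read 2.73, 2.64 and 2.48 in saline and 2.30, 2.38 and 2.40 in dexamethasone lung, with no overlap, and missed the threshold (change -0.26, SE 0.0977, adjusted p = 0.0605), but passed it without saline array 39 (change -0.33, adjusted p = 0.0305), without both arrays of the shared slide (adjusted p = 0.0424) and with slide as a random block (adjusted p = 0.049). Klf15 was called higher, from 2.98, 2.69 and 3.02 to 3.91, 3.40 and 3.76 (change 0.79, SE 0.241, adjusted p = 0.0186); it was not called without saline array 38 (adjusted p = 0.0899), dexamethasone array 54 (adjusted p = 0.0863) or dexamethasone array 56 (adjusted p = 0.052), nor by its dimmest kept probe (adjusted p = 0.054), with slide as a fixed block (change 0.55, adjusted p = 0.0777) or without both arrays of the shared slide (adjusted p = 0.0622). Of the 16 Kruppel-like factors tested, Klf10 (0.53, adjusted p = 0.0233) was the other one called, and was not called without saline array 39 (adjusted p = 0.108) or dexamethasone array 54 (adjusted p = 0.0728). Klf15 and Klf10 made up 12.5% of this list, near the 9.46% of all genes called higher.

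**Figure D2:**
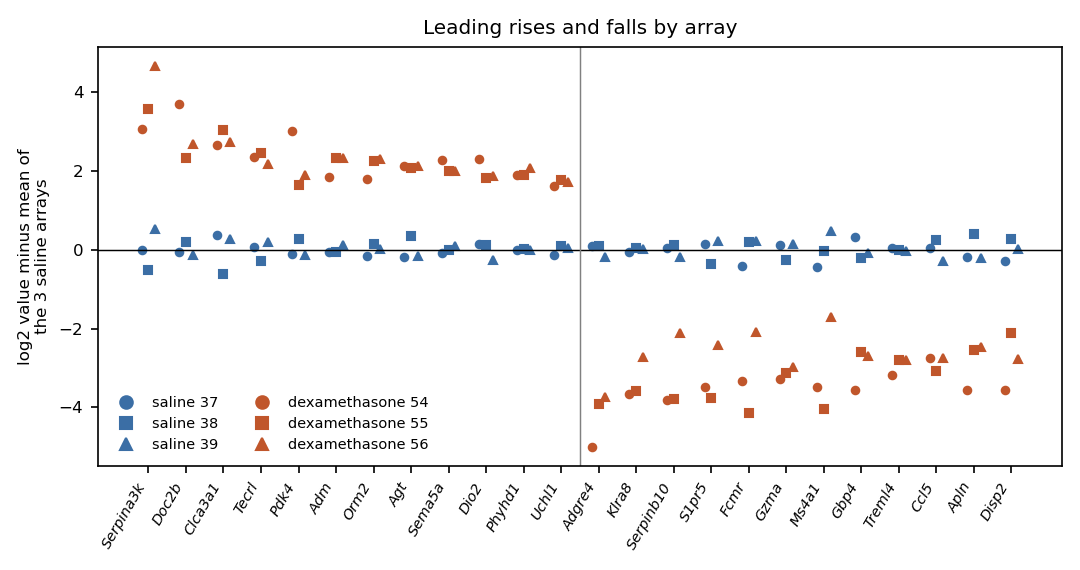
Log2 value of 12 strongly raised and 12 strongly lowered genes on each array, minus the mean of the 3 saline arrays (blue); dexamethasone arrays are orange and marker shapes name the replicate. The groups do not overlap for any of the 24 genes, but all except Uchl1 were picked among genes without overlap. Dexamethasone array 56 lies closest to saline for Klra8, Serpinb10, S1pr5, Fcmr and Ms4a1.

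The largest rises included genes of plasma proteins, regulators of chloride current, vesicle release and vasoactive peptides. By their brightest probes they also included the potassium channel genes Kcnt1 and Kcnab1. Serpina3k, a serine protease inhibitor of liver and plasma, rose from -6.84, -7.32 and -6.29 to -3.75, -3.25 and -2.16 (change 3.76, SE 0.683, adjusted p = 0.000264), and was well above background on 1 saline array and on all 3 dexamethasone arrays. Its neighbours Serpina3m (1.72) and Serpina3n (0.95) rose as well, but the members of this family are near-identical and may share signal. The plasma proteins Orm2 (2.12) and Orm1 (1.63), a near-identical pair, Agt (2.11), the precursor of angiotensin, and Apoh (1.97) rose. The list of acute-phase, antimicrobial and complement genes holds Serpina3k, Serpina3n and both Orm genes. Of its 31 members 5 were higher (16.1%) and 1 lower (3.23%), against 9.46% and 14.5% of all genes, and the median change was -0.28. Adm, the vasodilator adrenomedullin, rose from -1.79, -1.79 and -1.62 to 0.12, 0.59 and 0.58 (change 2.17, SE 0.154, adjusted p = 1.75e-09). Doc2b, a calcium sensor of vesicle fusion, rose from -6.54, -6.30 and -6.62 to -2.79, -4.17 and -3.80 (change 2.90, SE 0.406, adjusted p = 1.74e-05). It was the third largest rise among called genes with a proper name and no overlap. Serpina3k, Adm and Doc2b showed no overlap between groups, which was a condition of their choice as largest rises.

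Of 25 genes of potassium and calcium channels and vesicle release, 7 were higher and 5 lower (2 lower without saline array 38 or dexamethasone array 55). Clca3a1 rose from -2.04, -3.02 and -2.14 to 0.27, 0.64 and 0.33 (change 2.81, SE 0.233, adjusted p = 1.2e-08), and its near-identical neighbour Clca3a2 by 2.57; both encode secreted regulators of calcium-activated chloride current. The chloride channel Ano1 moved the other way, from 1.56, 1.68 and 1.65 to 0.41, 0.63 and 0.30 (change -1.18, SE 0.162, adjusted p = 1.13e-05). The potassium channel Kcnk1 rose by 0.88 and the synaptic adhesion gene Lrrc4 by 2.44. Kcnt1, a sodium-activated potassium channel well above background on 2 saline arrays, showed the largest rise among called genes with a proper name and no overlap. It rose from -6.70, -7.14 and -5.35 to -1.65, -2.41 and -2.30 (change 4.28, SE 0.417, adjusted p = 1.2e-07), but by its second and its dimmest kept probe it changed by 2.05 and -0.07, so the size of the rise rests on the choice of probe. The probes also disagreed for the channel subunit Kcnab1 (2.41 by its brightest and -0.54 by its dimmest probe). For transport across epithelium, the sodium pump subunit Atp1b1 (0.76), the ubiquitin ligase Nedd4l (0.63), which removes sodium channels, and the chloride cotransporter Slc12a2 (0.52) rose, while the sodium channel subunits Scnn1a, Scnn1b and Scnn1g changed by 0.08, 0.32 and 0.07 and were not called. In all, 6 of 23 genes of epithelial ion and water transport were higher (26.1%) and 3 lower (13%), against 9.46% and 14.5% of all genes.

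Other large rises were Tecrl (2.32), a reductase-like gene of the endoplasmic reticulum, the axon guidance gene Sema5a (2.09), the deiodinase Dio2 (1.99), which makes active thyroid hormone, Phyhd1 (1.96), the protease inhibitor gene Eppin (1.95) and Psg16 (1.94), which was well above background on 1 saline array. Phyhd1 and the ubiquitin hydrolase Uchl1 had the lowest adjusted p among the rises. Phyhd1 read 2.27, 2.29 and 2.28 in saline and 4.18, 4.18 and 4.36 in dexamethasone lung (change 1.96, SE 0.104, adjusted p = 1.49e-11). Uchl1 read -0.15, 0.08 and 0.04 and 1.61, 1.77 and 1.72 (change 1.71, SE 0.0975, adjusted p = 4.49e-11). The neuropeptide gene Calca, whose product CGRP dilates vessels and is made by neuroendocrine cells and nerves of the airway, rose from -1.28, -1.35 and -1.32 to 0.54, 0.15 and 0.05 (change 1.56, SE 0.261, adjusted p = 0.000108), and Uchl1 is a marker of the same cells. The neuroendocrine marker Chga (0.60) was not called. Igsf21 was well above background on no saline array and on 2 dexamethasone arrays, and is given as a bound, at least 2.97-fold higher (adjusted p = 0.0113), and was not called without saline array 37 (adjusted p = 0.0541), saline array 38 (adjusted p = 0.0635) or dexamethasone array 54 (adjusted p = 0.0607). Greb1 was called at 2.22 (adjusted p = 0.0498), from -3.52, -6.22 and -6.03 to -2.48, -3.43 and -3.21, and was not called without saline array 38 (adjusted p = 0.216), saline array 39 (adjusted p = 0.156), dexamethasone array 54 (adjusted p = 0.157), dexamethasone array 55 (adjusted p = 0.0725) or dexamethasone array 56 (adjusted p = 0.08).

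Genes that release and burn fatty acids were called mostly in the higher direction. Of 30 genes of fatty acid oxidation and fuel switching, 12 were higher and 1 lower, with a median change of 0.27. Beside Pdk4 and Angptl4, the lipoprotein lipase Lpl rose from 2.92, 2.82 and 3.07 to 4.28, 4.21 and 4.47 (change 1.39, SE 0.151, adjusted p = 6.42e-07) and the triglyceride lipase Pnpla2 from 3.57, 3.14 and 3.86 to 5.02, 4.64 and 4.49 (change 1.20, SE 0.222, adjusted p = 0.000338). The fatty acid receptor Ppara (0.66) and its coactivator Ppargc1a (0.59) rose as well, whereas the monoacylglycerol lipase Mgll fell (-0.56). The carnitine transferase Cpt1a, the gate of mitochondrial oxidation, changed by 0.08 (adjusted p = 0.589). Genes of the respiratory chain were mostly not called, with 1 of 33 higher and 1 lower. Of 19 genes of fatty acid synthesis, 3 were higher (15.8%) and 2 lower (10.5%), against 9.46% and 14.5% of all genes. The regulators Lpin1 (0.81) and Mlxipl (0.55) were among the higher ones. The storage droplet coat gene Plin4 rose by 1.46, while Adipoq (0.31) was not called. Of 14 adipocyte markers 2 were higher (14.3%) and 1, Slc7a10, lower (7.14%). Only 1 was higher without saline array 37, saline array 39, dexamethasone array 54 or dexamethasone array 56.

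Genes of amino acid breakdown were called more often higher than lower, though most were not called. Of 23 genes of branched-chain amino acid breakdown, 7 were higher and none lower by the brightest probe of each gene, and 4 were higher by the dimmest. Dbt, a core subunit of the complex that commits branched-chain keto acids to breakdown, rose from -2.15, -3.04 and -2.0 to -0.97, -1.11 and -1.34 (change 1.26, SE 0.297, adjusted p = 0.00313), and Aldh6a1 from 3.17, 3.01 and 2.93 to 4.18, 3.89 and 3.91 (change 0.96, SE 0.112, adjusted p = 1.6e-06). Of 40 genes of other amino acid pathways, 13 were higher and 5 lower, with a median change of 0.10; 3 were lower without saline array 38 or without dexamethasone array 54. Gnmt, which uses glycine to take up methyl groups, rose from 0.40, 0.63 and 0.45 to 2.27, 2.19 and 2.27 (change 1.75, SE 0.118, adjusted p = 8.02e-10), with no overlap. Tyrosine aminotransferase Tat (1.42), tryptophan dioxygenase Tdo2 (1.49), the glycine cleavage gene Gldc (1.35), cystathionine synthase Cbs (1.33), cystathionine lyase Cth (0.66) and proline dehydrogenase Prodh (0.72) rose too. Lower were the kynurenine hydroxylase Kmo (-1.63) and the first and second enzymes of serine synthesis, Phgdh, which fell from 1.32, 1.64 and 1.27 to 0.20, 0.03 and 0.11 (change -1.30, SE 0.158, adjusted p = 2.68e-06), and Psat1 (-0.53). Among 21 amino acid transporters, 6 were higher, with Slc38a4 (0.96), Slc43a1 (0.85) and Slc7a6 (0.69) among them, and 3 were lower, led by Slc7a10 (-2.07, adjusted p = 4.63e-09), a carrier of small neutral amino acids.

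Enzymes that oxidise and conjugate foreign compounds were called mostly in the higher direction. Of 36 tested, 15 were higher and 3 lower, and the median change was 0.35; without dexamethasone array 54, 9 were higher. The sulfotransferase Sult1a1 rose from 4.13, 4.44 and 4.36 to 5.30, 5.08 and 5.21 (change 0.89, SE 0.107, adjusted p = 2.18e-06) and the cytochrome Cyp2b10 from 3.64, 3.96 and 3.76 to 4.43, 4.39 and 4.51 (change 0.66, SE 0.105, adjusted p = 6.89e-05). Cyp4b1 (0.64), Cyp39a1 (0.69), Cyp3a13 (0.77), Ces1d (0.46) and Fmo1 (0.60) rose. Lower were Cyp7b1 (-1.05), a hydroxylase of oxysterols, and Cyp4f18 (-0.87), a leukotriene hydroxylase of neutrophils. Airway cell markers gave few calls, with 1 of 19 club cell genes (itself a cytochrome, Cyp2f2, 0.46, adjusted p = 0.0367) and 1 of 19 ciliated cell genes (Ccdc39, 0.56, adjusted p = 0.0238) called higher. Neither held when arrays were left out: Cyp2f2 was not called without saline array 37 (adjusted p = 0.251), dexamethasone array 54 (adjusted p = 0.0584), dexamethasone array 55 (adjusted p = 0.114) or dexamethasone array 56 (adjusted p = 0.0701), and Ccdc39 was not called without saline array 37 (adjusted p = 0.0783), saline array 38 (adjusted p = 0.0544), dexamethasone array 55 (adjusted p = 0.0553) or dexamethasone array 56 (adjusted p = 0.076).

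Cholesterol genes included 9 lower and 2 higher of 23. Dhcr7, the last enzyme of the pathway, fell from 1.43, 1.59 and 1.19 to 0.19, 0.22 and 0.08 (change -1.24, SE 0.132, adjusted p = 4.48e-07) and was called without each array in turn, but the count of lower genes was 2 without saline array 37 or dexamethasone array 56, 3 without saline array 38 or dexamethasone array 55, and 1 with median scaling. The cholesterol exporter Abca1 (0.76) and phosphomevalonate kinase Pmvk (0.82) rose.

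Circadian clock genes changed in opposite directions within the list. The activators Arntl (Bmal1) and Clock rose, whereas Dbp, Per3 and Bhlhe40 fell. Arntl rose from -2.48, -2.49 and -2.20 to -1.0, -0.83 and -0.40 (change 1.65, SE 0.175, adjusted p = 4.73e-07) and Clock from -0.17, -0.51 and -0.09 to 0.35, 0.60 and 0.69 (change 0.80, SE 0.102, adjusted p = 4.33e-06). Dbp, a direct output of these activators, fell from 5.21, 5.65 and 4.91 to 3.74, 3.58 and 3.33 (change -1.71, SE 0.161, adjusted p = 1.11e-07). None of the 3 genes overlapped between groups. The repressor Nfil3 rose (0.95) while Per3 (-0.56) and Bhlhe40 (-0.78) fell, so that 7 of 20 clock genes were higher and 5 lower. Nr1d1, which represses Arntl, was called lower (-1.08, adjusted p = 0.00252) with saline values of 0.64, 0.89 and -0.30 and dexamethasone values of -0.30, -0.70 and -1.01, but by its dimmest kept probe it changed by 0.34.

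**Figure D3:**
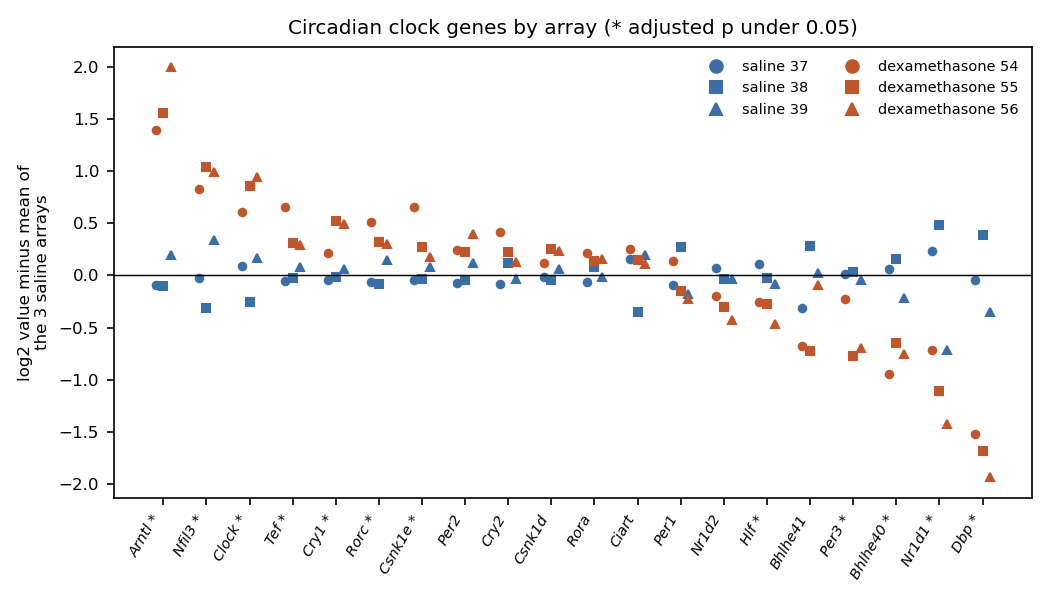
Log2 value of the 20 circadian clock genes on each array, minus the mean of the 3 saline arrays (blue), ordered by the change after dexamethasone (orange); asterisks mark the 12 called genes. Arntl, Nfil3 and Clock stand highest, and Dbp, Nr1d1 and Bhlhe40 lowest.

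Immediate-early and hypoxia genes gave small groups of rises. Of 19 immediate-early genes, 5 were called higher, and 3 without saline array 38, saline array 39 or dexamethasone array 55; the list median on array 55 was 1.10 against 0.06 and 0.21 on the other dexamethasone arrays. The small Maf protein Maff rose from 0.71, 0.69 and 0.66 to 1.73, 1.89 and 1.65 (change 1.07, SE 0.0902, adjusted p = 1.4e-08) and Ier3 by 0.90, while Fos (0.73, adjusted p = 0.33), Jun (0.20) and Egr1 (0.47) were not called. Of 18 hypoxia genes 6 were higher (33.3%) and none lower, and 3 were higher without saline array 37. The median change of this list was -0.03, near the -0.06 over all genes. The mitophagy gene Bnip3 rose from 3.06, 3.07 and 2.89 to 4.16, 4.04 and 3.89 (change 1.02, SE 0.0851, adjusted p = 1.2e-08).

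Lymphocyte genes fell, and the NK and B cell lists had the lowest median changes of the 58 gene lists. All 27 genes of natural killer (NK) cells and cytotoxic granules were called lower, 25 of them by at least 2-fold, with a median change of -2.51. Of 29 B and plasma cell genes 19 were lower, all 19 by at least 2-fold (median -1.69), and of 28 T cell genes 22 were lower (median -1.17), while none was called higher in any of the 3 lists, against 14.5% of all genes lower and 9.46% higher. In whole lung, fewer cells of a type and less RNA per cell cannot be told apart. The NK receptor gene Klra8 fell from -1.81, -1.70 and -1.73 to -5.40, -5.33 and -4.47 (change -3.32, SE 0.379, adjusted p = 1.12e-06), and Klra9 (-3.15) and Klra7 (-2.89), close relatives that may share signal, fell with it. The granzyme Gzma fell from 0.18, -0.21 and 0.22 to -3.22, -3.07 and -2.92 (change -3.13, SE 0.447, adjusted p = 1.78e-05) and the pore-forming Prf1 from -2.05, -1.90 and -2.26 to -4.81, -5.13 and -4.21 (change -2.64, SE 0.347, adjusted p = 6.48e-06). Gzmb (-2.56), Nkg7 (-2.60), the activating receptor Ncr1 (-2.69), the transcription factor Tbx21 (-1.93) and S1pr5 (-3.22), the receptor by which NK cells leave tissues, fell too. These genes showed no overlap between groups, which for the Klra genes, Gzma and S1pr5 was a condition of their choice as largest falls. S1pr5 and Ncr1 were well above background on only 1 and 2 of the 3 dexamethasone arrays, so their changes rest in part on values near background.

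In B cells, Fcmr, the receptor for IgM, fell from 0.85, 1.45 and 1.49 to -2.07, -2.89 and -0.81 (change -3.19, SE 0.459, adjusted p = 2.02e-05) and Ms4a1, which encodes CD20, from -0.06, 0.35 and 0.86 to -3.10, -3.66 and -1.32 (change -3.08, SE 0.504, adjusted p = 8.8e-05). Cd79a (-2.46), Fcer2a (-3.07), Bank1 (-3.05) and the follicle-homing receptor Cxcr5 (-3.08) fell, as did Ly6d (-2.97). The plasma cell gene Jchain (-0.94, adjusted p = 0.185) and the B cell factors Pax5 (-1.31, adjusted p = 0.138) and Ebf1 (0.01) were not called; Pax5, well above background on 1 dexamethasone array, was called lower without dexamethasone array 56 (adjusted p = 0.014). In T cells, the co-receptor Cd8a fell from -1.18, -1.35 and -1.41 to -3.63, -4.06 and -3.39 (change -2.38, SE 0.27, adjusted p = 1.04e-06), the signalling chain Cd247 from -1.15, -1.02 and -1.36 to -3.23, -3.39 and -3.01 (change -2.03, SE 0.167, adjusted p = 1.08e-08) and the kinase Lck from -0.48, -0.42 and -0.64 to -2.32, -2.72 and -2.36 (change -1.95, SE 0.197, adjusted p = 2.03e-07). Cd3d (-1.89), Cd3g (-1.66) and Cd5 (-1.72) fell, whereas Cd4 (-0.24, adjusted p = 0.674) and Cd3e (-0.54, adjusted p = 0.426) were not called.

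Dexamethasone array 56 lay nearest to saline in all 3 lymphocyte lists. Relative to the saline mean, the median NK gene stood at -2.54, -2.85 and -1.49 on arrays 54, 55 and 56, the median B cell gene at -2.05, -2.19 and -0.82 and the median T cell gene at -1.08, -1.40 and -0.78; the saline arrays stood between -0.32 and 0.16 in these lists. Without array 56, 27 NK genes, 21 B cell genes and 22 T cell genes were lower and 1 B cell gene was higher, with medians of -2.68, -2.12 and -1.25. Whether array 56 stands apart for a technical reason was not tested.

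**Figure D4:**
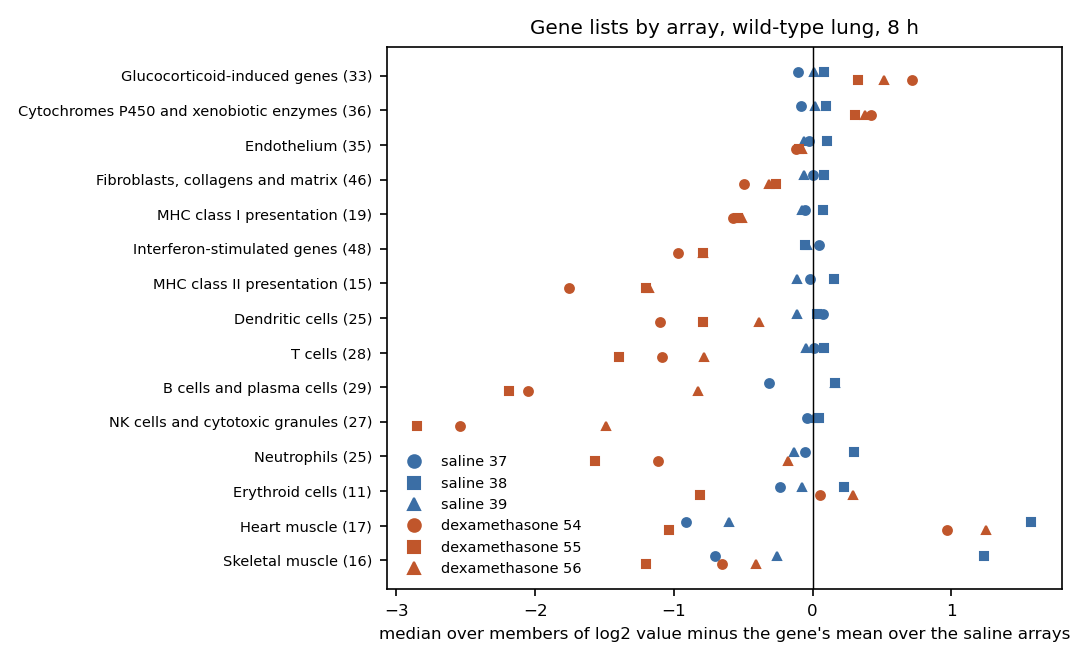
Median over the members of 15 gene lists, for each array, of the log2 value minus the gene's mean over the saline arrays (blue); dexamethasone arrays are orange, marker shapes name the replicate and the number of members tested is in brackets. NK, B and T cell lists lie below 0 on all dexamethasone arrays with array 56 nearest to 0, while heart and skeletal muscle lists vary between arrays of both groups.

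Myeloid genes changed less uniformly. Adgre4, an adhesion receptor of monocytes and macrophages, showed the largest fall among called genes with a proper name and no overlap. It fell from -1.80, -1.79 and -2.06 to -6.88, -5.80 and -5.62 (change -4.21, SE 0.426, adjusted p = 2.27e-07), where it was well above background on 2 arrays. Treml4, a receptor of non-classical monocytes and dendritic cells, fell from -0.31, -0.38 and -0.40 to -3.54, -3.17 and -3.16 (change -2.93, SE 0.149, adjusted p = 1.49e-11). Serpinb10, a protease inhibitor of blood cell lineages, fell by 3.24. Of 30 genes of monocytes and interstitial macrophages 9 were lower and 2 higher, Spn (-1.31) and Fcgr1 (-1.21) among the lower. Of 25 dendritic cell genes 13 were lower (8 without dexamethasone array 54 and 12 without array 56) and none higher. The migration receptor Ccr7 fell from -0.96, -0.50 and -0.99 to -2.48, -3.32 and -2.89 (change -2.08, SE 0.232, adjusted p = 8.57e-07), and Apol7c (-2.04) and Batf3 (-1.03) fell. Alveolar macrophage genes gave 2 calls in each direction of 22 (9.09% each), against 14.5% of all genes lower and 9.46% higher. The lipid carrier Fabp1 fell from 1.80, 1.87 and 1.84 to -0.99, -0.51 and -0.57 (change -2.53, SE 0.212, adjusted p = 1.4e-08), while Marco (-0.43), Siglecf (-0.02) and Pparg (-0.16) were not called. Of 25 neutrophil genes 6 were lower (3 without saline array 38), with a median change of -0.89 that was -1.56 without dexamethasone array 56, where 7 were lower. The granule genes S100a8 (-1.14) and S100a9 (-1.31) were not called. Il5ra, the eosinophil and B-1 cell receptor of interleukin 5, was not well above background on any dexamethasone array and is given as a bound, at least 3.81-fold lower (adjusted p = 0.000935).

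Genes of antigen presentation fell. Of 15 MHC class II genes 9 were lower and 1 higher, and 8 were at least 2-fold lower. Ciita, the master activator of class II genes, fell from 0.09, 0.02 and 0.03 to -2.50, -2.31 and -2.16 (change -2.37, SE 0.396, adjusted p = 0.000109). The class II chains H2-Ab1, from 4.96, 4.88 and 4.75 to 3.11, 3.66 and 3.44 (change -1.46, SE 0.207, adjusted p = 1.68e-05), and H2-Aa (-1.39) fell, as did the peptide loading genes H2-DMa (-1.59), H2-DMb1 (-1.63), H2-Oa (-2.26) and H2-Ob (-2.62). The member called higher was Rfxap (0.35), a subunit of the complex that binds class II promoters. Of 19 MHC class I genes 15 were lower and none higher, and 5 were at least 2-fold lower, with smaller changes (median -0.55). The immunoproteasome subunits Psmb9 (-1.42), Psmb8 (-1.29) and Psmb10 (-1.11) led them, and B2m (-0.08, adjusted p = 0.765) was not called. Class II genes mark both B cells and dendritic cells, whose own markers fell here too, and the part of those cells in the class II result was not tested.

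Interferon-stimulated genes fell, and many of their promoters held a short motif. Of 48 tested, 36 were lower and none higher, 17 by at least 2-fold, with a median of -0.90. Interferons signal through STAT and IRF proteins to elements built from GAAA repeats in the promoters of such genes. Shown are the 200 bases upstream of the start site, 5′ to 3′ on the strand of the gene, of 4 members at least 2-fold lower with the lowest adjusted p that hold GAAA, 2 free bases, GAAA on either strand. Capitals mark every copy of that motif, which reads TTTC, 2 free bases, TTTC where it lies on the other strand. The sequences are from RefSeq, build GRCm38.p6, for Ifit3 (chr19:34583329-34583528, plus strand), Oas1a (chr5:120907526-120907725, minus strand), Isg15 (chr4:156200819-156201018, minus strand) and Bst2 (chr8:71537473-71537672, minus strand).
Ifit3: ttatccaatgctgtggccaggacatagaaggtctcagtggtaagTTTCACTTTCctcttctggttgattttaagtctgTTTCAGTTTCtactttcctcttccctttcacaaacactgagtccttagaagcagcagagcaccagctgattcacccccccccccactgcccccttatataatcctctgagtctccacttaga
Oas1a: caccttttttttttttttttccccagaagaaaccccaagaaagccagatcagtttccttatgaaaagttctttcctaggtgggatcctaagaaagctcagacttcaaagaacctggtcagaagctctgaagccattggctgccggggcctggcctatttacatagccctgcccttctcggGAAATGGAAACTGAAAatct
Isg15: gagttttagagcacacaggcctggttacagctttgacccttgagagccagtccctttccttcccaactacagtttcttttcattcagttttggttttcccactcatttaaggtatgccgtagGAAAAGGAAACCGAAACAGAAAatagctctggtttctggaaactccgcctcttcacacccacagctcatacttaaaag
Bst2: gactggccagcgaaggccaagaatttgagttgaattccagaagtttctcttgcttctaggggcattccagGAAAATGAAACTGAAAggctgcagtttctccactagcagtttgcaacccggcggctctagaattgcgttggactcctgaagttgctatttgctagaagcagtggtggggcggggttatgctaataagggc
The stretch in capitals that lies farthest upstream begins between 156 and 20 bases before the start site in these 4 promoters. Over promoters of 300 bases (250 before to 50 after the start), it was found in 48.9% of those of the list (22 of 45), in 7.74% of those of genes called at least 2-fold lower, in 3.94% of those of genes at least 2-fold higher and in 3.19% of all 15458 promoters of tested genes. Ifit3, which binds viral RNA with its relatives, fell from 2.83, 2.77 and 2.77 to 1.85, 1.67 and 1.57 (change -1.10, SE 0.12, adjusted p = 6.77e-07). Oas1a, an RNA-sensing synthetase, fell from -1.03, -0.82 and -1.16 to -2.07, -2.23 and -1.98 (change -1.09, SE 0.168, adjusted p = 4.5e-05), the ubiquitin-like Isg15 from -0.24, -0.05 and -0.42 to -1.68, -1.40 and -1.29 (change -1.22, SE 0.206, adjusted p = 0.000128) and the virus tether Bst2 from 3.53, 4.07 and 3.51 to 2.60, 2.80 and 2.67 (change -1.01, SE 0.174, adjusted p = 0.000149). None of these 4 genes overlapped between groups. The guanylate-binding Gbp4 (-2.95), Zbp1 (-2.06) and Irf7 (-1.09) fell too, whereas Ifit2 (-0.11) and Irf1 (-0.17) were not called. The receptor's own palindrome, AGAACA, 3 free bases, TGTTCT, was found with at most 1 mismatch in 0.11% of all promoters in this window. In the glucocorticoid-induced list 2 of 45 promoters (4.44%) held it. None of the 127 promoters of genes at least 2-fold higher did, but at a share of 0.11% so few promoters cannot show a difference.

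Signals that draw and hold leukocytes fell with the leukocyte genes. Of 33 chemokines 13 were lower and none higher. Ccl5, made by T and NK cells among others, fell from 3.08, 3.26 and 2.74 to 0.29, -0.04 and 0.27 (change -2.85, SE 0.336, adjusted p = 1.67e-06), and Cxcl12, made by stroma and endothelium, from 3.77, 4.28 and 3.76 to 2.63, 2.0 and 2.02 (change -1.72, SE 0.181, adjusted p = 3.89e-07). Ccl21a, which guides cells into lymphatics, fell from 4.64, 4.32 and 3.95 to 2.91, 3.33 and 3.07 (change -1.20, SE 0.182, adjusted p = 3.69e-05). Ccl4 (-1.92), Ccl12 (-1.78), Ccl6 (-1.14) and Cxcl14 (-1.19) fell, whereas Cxcl1 (0.54, adjusted p = 0.212) and Cxcl5 (0.51, adjusted p = 0.482) were not called. Of 29 chemokine receptors and trafficking genes 14 were lower (15 without dexamethasone array 56) and 1 higher, the kinase Sphk1 (1.09), which makes sphingosine 1-phosphate. Of 22 adhesion genes 12 were lower, with the integrins Itga4 (-1.19), Itgb7 (-1.46) and Itgal (-1.19) and the endothelial Icam2 (-0.79) among them. The endothelial receptor Sele (0.70) was not called.

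Cytokine and receptor genes were lower in 27 of 64 cases and higher in 3, with 17 lower without saline array 38. Ifng, the cytokine of NK and T cells, fell from -3.89, -4.14 and -4.0 to -6.19, -6.26 and -5.50 (change -1.97, SE 0.451, adjusted p = 0.00244), and the cytokine Ltb from 1.50, 1.86 and 1.74 to -0.18, -0.45 and 0.33 (change -1.80, SE 0.251, adjusted p = 1.4e-05). The receptor chains Il2rb (-1.70), Il2rg (-1.13), Il10ra (-1.19) and Il12rb1 (-1.35) and the growth factor Hgf (-0.96) fell, and Il6ra rose (0.69). Of 35 NF-kB and inflammatory effector genes, 8 were lower (22.9%, against 14.5% of all genes) and 4 higher (11.4%, against 9.46%). Both prostaglandin synthases rose, Ptgs1 from 2.71, 2.91 and 2.84 to 3.72, 3.62 and 3.62 (change 0.84, SE 0.118, adjusted p = 1.5e-05) and Ptgs2 from -1.23, -1.69 and -1.36 to -0.79, -0.09 and -0.59 (change 0.93, SE 0.176, adjusted p = 0.000405), while prostaglandin E synthase Ptges (-0.79) and the receptors Tlr1 (-1.93) and Tlr2 (-0.96) fell. The subunits Rela (-0.13) and Nfkb2 (-0.31) of NF-kB were not called.

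Of 35 endothelial genes 10 were lower (28.6%, against 14.5% of all genes) and 3 higher (8.57%, near the 9.46% of all genes). Apln, the peptide apelin of endothelial tip cells, fell from 1.59, 2.19 and 1.56 to -1.77, -0.77 and -0.69 (change -2.85, SE 0.243, adjusted p = 1.56e-08), and its receptor Aplnr from 0.25, 0.78 and 0.28 to -1.53, -0.68 and -0.96 (change -1.50, SE 0.23, adjusted p = 4.33e-05). Emcn (-0.74), Nos3 (-0.57), Tek (-0.52) and Pecam1 (-0.50) fell less, Ptprb rose (0.42), and the cadherin Cdh5 (0.07) and Kdr (-0.05) were not called. The gap junction gene Gja5, of arterial endothelium and heart atrium, read 0.67, 0.55 and 0.45 in saline and -1.64, -1.74 and -1.79 in dexamethasone lung (change -2.28, SE 0.122, adjusted p = 1.49e-11) and had, with Phyhd1 and Treml4, the lowest adjusted p of all genes, but its other kept probe changed by -0.54 (log2) and was not called.

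Matrix and cell cycle genes were called mostly in the lower direction. Of 46 fibroblast and matrix genes 15 were lower and 5 higher, with 8 lower without saline array 38 or without dexamethasone array 54. The collagen Col3a1 fell from 3.64, 3.91 and 3.70 to 1.59, 2.75 and 2.44 (change -1.49, SE 0.338, adjusted p = 0.00222) and the matrix protein Tnc from -3.39, -3.15 and -3.16 to -5.08, -4.40 and -4.40 (change -1.39, SE 0.204, adjusted p = 2.42e-05). The collagen crosslinking gene Loxl1 (-1.22), Fbln1 (-0.87) and the macrophage elastase Mmp12 (-2.32, well above background on 1 dexamethasone array) fell, whereas the basement membrane collagen Col4a2 (0.56) and the protease inhibitor Timp3 (0.59) rose. Of 48 genes of Wnt, Notch, Hedgehog and Bmp signalling 8 were lower (16.7%) and 5 higher (10.4%), near the 14.5% and 9.46% of all genes (5 lower without saline array 38); the ligand Wnt2, of lung mesenchyme, fell from 1.50, 1.64 and 1.44 to -0.38, -0.04 and -0.48 (change -1.83, SE 0.15, adjusted p = 1.05e-08), and Sfrp2 (-1.63) and Wnt3a (-1.25) fell. Of 40 cell cycle genes 14 were lower and 1 higher, and 8 or 9 were lower without any 1 of saline arrays 37 and 38 or dexamethasone arrays 54 and 55. Tk1, of DNA synthesis, fell from -0.57, -0.13 and -0.70 to -1.85, -1.90 and -1.77 (change -1.37, SE 0.198, adjusted p = 2.02e-05), and E2f1 (-1.20), Mcm5 (-0.92) and Foxm1 (-0.67) fell.

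Most defining genes of alveolar epithelium were not called. Of 23 type 2 cell genes 7 were lower and 2 higher, and 4 lower without dexamethasone array 54. The surfactant genes Sftpb (-0.16), Sftpc (0.33) and Sftpd (0.08) were not called. Egfl6 fell from 0.46, 0.44 and 0.25 to -1.11, -0.83 and -1.09 (change -1.40, SE 0.126, adjusted p = 3.93e-08), and the cathepsin Ctsh rose by 0.58. Of 15 type 1 cell genes 2 were higher (13.3%) and 1 lower (6.67%), against 9.46% and 14.5% of all genes, with Ager at -0.08 and not called. The heart muscle genes differed between arrays of 1 group, with array medians of -0.91, 1.58 and -0.61 in saline and 0.97, -1.03 and 1.25 in dexamethasone lung, and skeletal muscle genes read -0.70, 1.23 and -0.25 and -0.65, -1.20 and -0.41. Their defining genes Myh6 (0.70) and Acta1 (-0.94) were not called, but 6 of 16 skeletal muscle genes were called lower, a count of 2 or 3 without saline array 38, dexamethasone array 54 or dexamethasone array 55. Red cell genes read -0.24, 0.23 and -0.08 in saline and 0.05, -0.81 and 0.29 in dexamethasone lung.

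Many glucocorticoid-induced genes changed less at 8 h than at 4 h. At 4 h, with 4 arrays in each group rather than 3, 5644 genes were called. The genes called in the same direction at both times numbered 2653, which is 72.1% of the 8 h calls and 47% of the 4 h calls. More arrays allow more calls, so these counts and shares do not show at which time the response was wider. The difference between the effects, a contrast with no array in both times, was called for 947 genes (6.17%), and for 619 without dexamethasone array 55. It can come from the saline level as well as from the dexamethasone level, and the share of each was not tested. By its brighter probe, Klf15 had array medians of 2.24 in saline and 4.19 in dexamethasone lung at 4 h. At 8 h these medians were 2.98 and 3.76. Among the 33 glucocorticoid-induced genes, 15 had a smaller effect at 8 h by this test and none a larger one, and the median change was 1.31 at 4 h against 0.47 at 8 h. Fkbp5 changed by 3.08 at 4 h and -0.02 at 8 h by its brightest probe (difference -3.10, SE 0.679, adjusted p = 0.00569), and by its dimmest probe the difference was -2.77 (adjusted p = 1.01e-05). Fam107a changed by 4.17 and 1.89 (difference -2.27, adjusted p = 1.13e-06), Cdkn1a by 3.05 and 1.73 (adjusted p = 0.00233), and Tsc22d3 by 1.56 and 0.47 (adjusted p = 0.00342). Tat (3.48 and 1.42) of the same list, and outside it Gldc (3.84 and 1.35), Dio2 (3.51 and 1.99) and Pmaip1 (3.52 and 1.56), a trigger of cell death, were less raised at 8 h. The differences of these 8 genes were called without each array in turn. Among genes at least 2-fold higher at 4 h (458), the median 8 h change was 0.70, and among those at least 2-fold lower (608) it was -1.02. Both sets were picked by a large change at 4 h, so a smaller change at 8 h is expected from the choice alone.

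Other genes changed more at 8 h. Arntl changed by 0.45 at 4 h and 1.65 at 8 h (difference 1.19, SE 0.232, adjusted p = 0.00203), and Per3 by 0.33 and -0.56 (adjusted p = 0.00337). The changes of Egfl6 (-0.52 and -1.40), Psat1 (0.12 and -0.53), Fabp1 (-1.38 and -2.53) and Slc7a10 (-1.14 and -2.07) were lower at 8 h than at 4 h. The change of the heat shock gene Hspa1a was higher at 8 h (-0.23 and 0.74). These differences too were called without each array in turn, while those of Per3, Fabp1 and Slc7a10 were not called with median scaling. Fat3, an atypical cadherin, had the lowest adjusted p for the difference (0.31 and -2.02, adjusted p = 4.09e-08), but by the dimmest of its 3 kept probes neither the fall at 8 h nor the difference was called. The other genes among the 10 lowest adjusted p, beside Fam107a, had changed at 4 h and stood nearer to saline at 8 h: Zbtb8b (2.81 and -0.07), Slc25a33 (1.84 and 0.30), Mcf2l (1.62 and 0.30), Fam117b (1.54 and 0.16), Coro2a (1.51 and 0.21), Fam160a1 (1.31 and -0.02), Afap1l2 (-1.47 and 0.05) and Sh3rf2 (-2.36 and -0.29). In the NK, B and T cell lists no gene had a called difference between the times, with list medians of -1.69, -1.60 and -0.84 at 4 h.

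**Figure D5:**
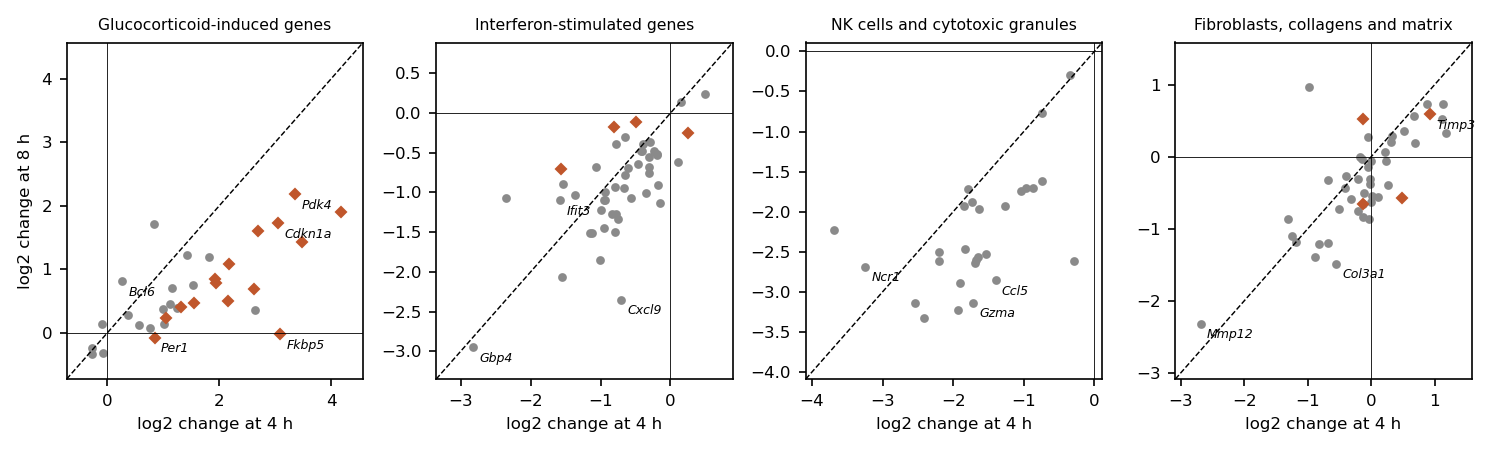
Log2 change after dexamethasone at 4 h (horizontal) and at 8 h (vertical) in wild-type lung for the members of 4 gene lists; the dashed line marks equal change and orange diamonds mark a called difference between the times. Among the glucocorticoid-induced genes 15 are marked, all with the smaller change at 8 h, and no NK cell gene is marked.

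The genotype comparison asks how far the 8 h effect depended on Klf15. By its brighter probe, Klf15 read 2.69 to 3.91 on the 6 wild-type arrays at 8 h and -0.63 to 1.18 on the 8 Klf15-/- arrays at 8 h, with no overlap, so the labels held; the probe was still well above background in the knockout, and its place relative to the deletion is unknown here. In Klf15-/- lung, with 4 arrays in each group rather than 3, 6587 genes were called at 8 h. The genes called in the same direction in both genotypes numbered 2583, which is 70.2% of the wild-type calls and 39.2% of the knockout calls. Here too more arrays allow more calls, so these counts and shares do not show in which genotype the response was wider. The effect differed between genotypes for 999 genes (6.51%), and for 741 of them it was lower in wild type. This count rests on the scaling between arrays, since it was 36 with median scaling and 186 with the deposited table, and 44.4% and 52.7% of those were higher in wild type against 25.8%. It was 593, 391 and 663 without saline arrays 37, 38 and 39, 342 and 622 without dexamethasone arrays 55 and 56, 657 and 482 without knockout saline arrays 46 and 47, and 430 without knockout dexamethasone array 64.

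Amino acid genes were among the differences with the lowest adjusted p. Fah, the last enzyme of tyrosine breakdown, read 0.25, 0.38 and 0.27 in saline and 0.83, 0.67 and 0.66 in dexamethasone lung of wild type, a change of 0.42, and changed by -0.38 in the knockout (difference 0.80, SE 0.108, adjusted p = 0.000832). Bckdhb, a subunit of the branched-chain keto acid complex, changed by 0.45 and -0.15 (difference 0.60, SE 0.0797, adjusted p = 0.000832), which was not called by its dimmest probe. The amino acid transporter Slc38a4 was less raised in wild type, at 0.96 against 2.29 (adjusted p = 0.00158), as were Orm1 (1.63 and 3.33, adjusted p = 0.0103) and the synaptotagmin Syt12 (0.15 and 1.40, adjusted p = 0.00158). These 5 differences were called without each array in turn, and those of Fah, Slc38a4, Orm1 and Syt12 under every scaling tried. Nfe2l1 (0.12 and 0.70), Farp1 (-0.14 and 0.38), Mdh2 (-0.07 and 0.58), Fasn (-0.26 and 0.60) and Mtmr1 (0.01 and 0.71) were not called with median scaling, and Col4a6 (-0.27 and 0.45) was not called by its dimmest probe. In the NK cell and interferon-stimulated lists no gene had a called difference between genotypes, with list medians of -2.06 and -0.73 in the knockout.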

How the data were processed

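Total RNA of lung was measured on 29 one-colour Agilent arrays on 8 slides. The deposited intensity values come, per the file headers, from Feature Extraction 10.7.3.1 as processed signals, background-subtracted and not scaled between arrays; the submitters' processing notes name version 10.6. The deposited table of log2 values (column medians 8.28 to 8.30) served as an alternative, with its scaling between arrays not given in the sources used here. Control spots and outlier spots were left out, each array was scaled to its 75th percentile on the log2 scale, and spots of a probe were averaged. A probe was kept where 3 or more arrays of any group put it well above background (33938 of 41174), 24844 of all probes matched 1 gene of the RefSeq table (GRCm38.p6) and 16330 none, and each gene was read from its brightest kept probe. A model with the mean of each of 8 groups was fitted to the 29 arrays with limma 3.58.1 (R 4.3.3), with Benjamini-Hochberg adjustment over 15357 genes and a threshold of 0.05. It was also run on simulated data with known changes, which took group means and the spread of each gene from these arrays. The simulated noise was independent between arrays, with no effect of slide. Bounds for genes not well above background in a group compare means of scaled log2 values with the lowest signal well above background on each array.

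The genes named are Klf15, Nr3c1, the largest changes without overlap, the lowest adjusted p of each comparison, bright called genes and members of gene lists by p, with some uncalled members added after their values were seen; some genes are not reported here. The largest changes were ranked only among called genes with a proper name, leaving out predicted genes, clones and accession numbers. The genes, lists and comparison were chosen with earlier results of these data known. Alternatives covered scaling, background correction, dim probes, choice of probe, slide, array weights and leaving out each array; normexp used the median signal.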

Additional observations from a re-analysis of the deposited data

Results flagged for a closer look

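The effect of dexamethasone at 8 h differed from that at 4 h in wild-type lung for 947 genes by limma's test of the difference itself, and 66 genes named here are among them. Of these 66, 44 were called without each array in turn and 27 lost the call with median scaling. Values are the log2 change at 8 h minus that at 4 h, so that a value below 0 is a lower change at 8 h (a smaller rise, a larger fall or a turn from rise to fall). The difference was below 0 for Fkbp5 (-3.10), Zbtb8b (-2.89), Doc2b (-2.66), Gldc (-2.49), Fat3 (-2.34), Fam107a (-2.27), Tat (-2.06) and Pmaip1 (-1.96). Below 0 it also stood for Slc25a33 (-1.54), Dio2 (-1.52), Bcl2l1 (-1.51), Kcnab1 (-1.45), Slc38a4 (-1.39), Fam117b (-1.39), Fam160a1 (-1.33) and Cdkn1a (-1.33). Further values below 0 were those of Mcf2l (-1.32), Coro2a (-1.29), Eppin (-1.19), Pdk4 (-1.18), Lpin1 (-1.17), Syt12 (-1.17), Klf15 (-1.16) and Fabp1 (-1.15). Smaller values below 0 were those of Mt2 (-1.10), Map3k6 (-1.10), Tsc22d3 (-1.09), H2-Ab1 (-0.97), Slc7a10 (-0.94), Per1 (-0.92), Per3 (-0.90) and Ccl6 (-0.89). Next below 0 came Egfl6 (-0.88), Clca3a2 (-0.84), Kcnk1 (-0.82), Cxcl12 (-0.80), Dbp (-0.77), Rgcc (-0.75), Sult1a1 (-0.74) and Hspb8 (-0.69). Then followed Il2rg (-0.69), Maff (-0.69), Pdia4 (-0.67), Foxm1 (-0.66), Psat1 (-0.65), Cyp7b1 (-0.56), Atp1b1 (-0.50) and Bnip3 (-0.50). Last below 0 were Timp3 (-0.35) and Nfe2l1 (-0.25). It was above 0 for Ifit2 (0.39), Slc12a2 (0.46), Clock (0.50), Nr3c1 (0.54), Irf1 (0.63), Ptges (0.94), Hspa1a (0.97) and Fmo1 (1.03). Further values above 0 were those of Aplnr (1.08), Arntl (1.19), Kdr (1.29), Ier3 (1.32), Wnt3a (1.36), Afap1l2 (1.53), Sh3rf2 (2.07) and Cxcl5 (2.29).

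The effect at 8 h differed between wild-type and Klf15-/- lung for 999 genes by the same test, and 44 genes named here are among them. Of these 44, 18 were called without each array in turn and 37 lost the call with median scaling. Values are the log2 change in wild type minus that in the knockout. The effect was lower in wild type for Orm1 (-1.71), Orm2 (-1.33), Slc38a4 (-1.33), Syt12 (-1.25), Tecrl (-1.10), Zbtb8b (-1.09), Lpin1 (-1.06) and Kcnab1 (-1.02). Below 0 it also stood for Cyp7b1 (-0.99), Lrrc4 (-0.93), Fasn (-0.86), Pmaip1 (-0.84), Pmvk (-0.77), Col4a6 (-0.72), Foxm1 (-0.71) and Kcnk1 (-0.71). Further values below 0 were those of Mtmr1 (-0.70), Fam117b (-0.70), Phyhd1 (-0.66), Mdh2 (-0.65), Slc25a33 (-0.65), Nfe2l1 (-0.57), Gnmt (-0.57) and Fam160a1 (-0.56). Smaller values below 0 were those of Uchl1 (-0.55), Serpina3m (-0.53), Scube1 (-0.53), Farp1 (-0.52), Hspb8 (-0.50), Maff (-0.48), Sult1a1 (-0.48) and Sphk1 (-0.47). Next below 0 came Sftpd (-0.47), Bnip3 (-0.46) and Timp3 (-0.37). It was higher in wild type for Sh3rf2 (0.55), Tek (0.57), Bckdhb (0.60), Fmo1 (0.60), Kdr (0.64), Fah (0.80), Cbs (0.93) and Aplnr (1.17). Further values above 0 were those of Dbt (1.44).

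Groups of 3 arrays were not tested for single arrays that stand apart.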

How the results depend on the processing

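No paired analysis was possible because the groups share no replicate numbers. Against 3680 genes called (1453 higher, 2227 lower), median scaling gave 2419 (1288 lower), and a fit to the groups compared alone 1542 (536 higher, 1006 lower); normexp gave 271 genes at least 2-fold lower against 514. Leaving out each array gave 2629 to 3544 calls, 1102 to 1346 higher, 1508 to 2198 lower, 124 to 183 at least 2-fold higher and 407 to 718 at least 2-fold lower.

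Against 947 genes that differed between times, median scaling gave 549, the groups compared alone 610, slide as a fixed block 1525, slide as a random block 1714, array weights 1698, leaving out both slide 1 arrays 561 and leaving out each array 619 to 1117. With median scaling 63.6% of these were above 0, against 45.5%. Against 999 that differed between genotypes, median scaling gave 36, quantile normalization 379, normexp 161, the mean of probes 652, the fixed block 514, the groups compared alone 490, array weights 3263, the authors' deposited values 186, leaving out both slide 1 arrays 284 and leaving out each array 342 to 1206. The share above 0 was 25.8%, and 44.4% with median scaling, 52.2% with quantile normalization, 57.1% with normexp, 36.2% with the mean of probes, 45.6% with the dimmest probe and 52.7% with the deposited table. The causes were not tested. With median scaling the lower members numbered 3 rather than 7 among type 2 cell genes, 5 rather than 8 among NF-kB genes, 8 rather than 14 among cell cycle genes and 5 rather than 8 among Wnt, Notch, Hedgehog and Bmp genes.

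Of 209 named genes called, 34 lost the call under at least 1 alternative. The dimmest probe turned the sign for Kcnt1 (-0.071), Kcnab1 (-0.54), Nr1d1 (0.34) and Col4a6 (0.13). Fkbp5, near 0 by its brightest probe, was called at 1.21 by the mean of its probes and at 1.74 by the dimmest. By the dimmest probe the time difference of Ifit2 was -0.016, and the genotype differences of Col4a6 and Uchl1 were 0.28 and 0.24. The number of arrays (3 a group) limits the precision, and only slide 1 held both groups; of 3221 genes called without its arrays, 93.2% had the same sign on slide 1. The variants that leave out both slide 1 arrays and that recount the lists were chosen after seeing the data.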

Other observations

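Regulators of cell number and of stress are given beside the share of all genes called, 9.46% higher and 14.5% lower. Of 29 BCL2 family and apoptosis genes 5 were higher (17.2%) and 8 lower (27.6%), and 4 and 4 with median scaling. Bcl2l1, which protects cells from death, rose from 1.83, 1.80 and 1.79 to 2.81, 2.34 and 2.53 (change 0.75, SE 0.124, adjusted p = 9.2e-05), and Pmaip1, which promotes it, from 0.46, 0.18 and 0.15 to 1.79, 1.84 and 1.85 (change 1.56, SE 0.187, adjusted p = 2.2e-06); the inhibitor of apoptosis Birc3 (0.33) and the effector Bid (-0.69) also passed limma's threshold. Of 14 cyclin D and Cdk inhibitor genes 5 were higher (35.7%) and 2 lower (14.3%), and Ccnd2 changed by -0.86. The chaperones Hspa1a (0.74) and Hspb8 (0.66) rose, among 3 of 19 heat shock genes called higher (15.8%) and none lower (6 higher without dexamethasone array 54). Of 21 genes of the unfolded protein response, 3 were higher and 3 lower (14.3% each), near the shares of all genes, with Dnajb9 at 0.58 and Pdia4 at -0.65.

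Some bright genes of lung changed by less than 2-fold. Selenbp1, a selenium-binding protein of airway epithelium, read 5.90, 6.28 and 6.34 in saline and 6.84, 6.85 and 6.73 in dexamethasone lung (change 0.63, SE 0.114, adjusted p = 0.000322). Rgcc, a cell cycle and endothelial response gene, read 6.13, 6.35 and 6.40 and 6.92, 6.87 and 6.72 (change 0.55, SE 0.122, adjusted p = 0.00222). The groups did not overlap for either gene.

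Car12, a carbonic anhydrase, was well above background on 3 saline and no dexamethasone arrays, which puts it at least 4.12-fold lower (adjusted p = 4e-07, limma). Disp2 (-2.82) and Scube1 (1.38) passed the threshold as well. Neither overlapped between groups, which for Disp2 was a condition of its choice.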
